A study of Mus musculus with 6 samples.

Results

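This account covers 6 genes that mark retinal horizontal cells, taken by name from the 28627 genes of the table: the 3 Onecut transcription factor genes Onecut1, Onecut2 and Onecut3, the homeobox genes Lhx1 and Prox1, and the calcium-binding protein gene Calb1. All 6 were found and all 6 passed the filter on low values that left 16681 genes for testing. The 6 genes were selected on the Emcn-/- against Emcn+/+ values of these same libraries, in which a list of horizontal cell genes had a lower mean in Emcn-/- retinas. Their genotype values are therefore given as a description and carry no test.

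The samples were whole retinas of mouse pups at postnatal day 15, all from the oxygen-induced retinopathy model, with 3 libraries per genotype, Emcn-/- and its Emcn+/+ littermates. That model exposes pups to high oxygen, under which retinal capillaries are lost, and returns them to room air, which leaves the retina short of oxygen. Endomucin, the product of Emcn, is a sialomucin on the surface of endothelial cells. The sources used here do not give the allele, the strain, the number of animals per library or whether the deletion is limited to some cells. Poly-A RNA was sequenced, and the deposited value of a gene is its read count divided by 1 factor per library, called normalised reads here, so that 1 read is worth 0.924 to 1.09 normalised reads.

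Horizontal cells are inhibitory interneurons whose processes contact photoreceptor terminals in the outer plexiform layer and feed back onto them. In the mouse embryo the forkhead factor Foxn4 and then Ptf1a direct progenitors toward horizontal and amacrine fates. Onecut1 acts in the same path, and Lhx1 and Prox1 follow in the postmitotic cells. Onecut factors are also found in ganglion cells and in developing cones, Prox1 also in amacrine, bipolar and Müller glial cells and in lens fibres, and Calb1 also in amacrine and ganglion cells. In whole retina, fewer cells of a type and less RNA per cell cannot be told apart.

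The libraries held 14865868 to 17087621 reads. Emcn itself averaged 2.54 ± 1.86 normalised reads in Emcn-/- retinas, against 91.5 ± 10.05 in Emcn+/+ retinas (SD, n = 3 each), so the transcript followed the label. Emcn+/+ replicate 3 alone had the read pattern of a female pup: 17641 Xist reads, against 1 to 5 in each other library. With all libraries 1 gene was called in the test over all genes, Emcn itself (limma adjusted p = 0.0143). Without Emcn+/+ replicate 3, 147 genes were called, none of them among the 6 genes. Emcn+/+ replicate 1 held 66552 normalised reads summed over 11 lens genes, against 574 to 1139 in the other 5 libraries. Nothing in the labels says that the libraries of a genotype came from separate animals.

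The upstream sequences of Onecut1 and Lhx1 are shown because Onecut1 precedes Lhx1 in the horizontal cell path. Each line is the 250 bases before the annotated start, 5′ to 3′ on the strand of the gene, from RefSeq on GRCm38.p6, at chr9:74861671-74861920 on the plus strand for Onecut1 and chr11:84525535-84525784 on the minus strand for Lhx1.

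Onecut1: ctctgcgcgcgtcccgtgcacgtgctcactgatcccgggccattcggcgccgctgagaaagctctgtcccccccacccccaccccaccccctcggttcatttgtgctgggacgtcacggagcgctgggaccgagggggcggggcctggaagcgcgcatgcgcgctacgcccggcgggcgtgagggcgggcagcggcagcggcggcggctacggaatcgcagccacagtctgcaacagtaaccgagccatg

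Lhx1: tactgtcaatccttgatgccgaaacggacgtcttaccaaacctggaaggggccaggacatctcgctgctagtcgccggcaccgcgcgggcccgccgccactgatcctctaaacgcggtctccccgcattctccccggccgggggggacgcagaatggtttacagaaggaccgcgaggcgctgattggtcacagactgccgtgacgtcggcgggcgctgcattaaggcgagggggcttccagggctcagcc

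Neither window holds the Onecut core motif ATTGAT on either strand, which is why no base is in capitals. The palindromic variant ATCGAT was not in them either, and the same held for both windows listed for Prox1. Of 32851 such windows over all genes, 6.72% hold ATTGAT on either strand, 0.728% hold ATCGAT and 7.40% hold at least one of them. The search concerns these letters in these windows only.

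All 3 Onecut genes were weakly expressed and had lower values in Emcn-/- retinas, with group means at 68.6% to 74.0% of those in Emcn+/+ retinas. Onecut2 and Onecut3 were lower in every Emcn-/- library than in any Emcn+/+ library, and Onecut1 was not. Lhx1, Prox1 and Calb1 overlapped between the genotypes.

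Onecut2 (ENSMUSG00000045991, GRCm38 chromosome 18, 64340020 to 64400987, plus strand), which shares its DNA-binding cut domain and homeodomain with Onecut1, had 92.5, 99.6 and 99.8 normalised reads in Emcn-/- retinas, against 144, 131 and 151 in Emcn+/+ retinas. The highest Emcn-/- library thus stayed below the lowest Emcn+/+ library. The means were 97.3 ± 4.16 in Emcn-/- and 142 ± 10.2 in Emcn+/+ (SD, n = 3 each), a log2 fold change of -0.54 ± 0.13 (SE, on the log2(value + 1) scale, as are all fold changes here). The spread of these values was small for their depth: the SD was 4.27% of the mean in Emcn-/- and 7.20% in Emcn+/+, while counting error alone gives 10.02% and 8.47% at 299 and 418 reads in all.

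Onecut3 (ENSMUSG00000045518, chromosome 10, 80494835 to 80517276, plus strand), the third member of the family, had 74.0, 62.2 and 48.1 normalised reads in Emcn-/- retinas, against 79.9, 94.5 and 80.8 in Emcn+/+ retinas. These groups did not overlap either, but Emcn-/- replicate 1 came close to the Emcn+/+ libraries and Emcn-/- replicate 3 lay far below them. The means were 61.4 ± 13.0 in Emcn-/- and 85.1 ± 8.21 in Emcn+/+ (SD, n = 3 each; log2 fold change -0.48 ± 0.20 SE). Without Emcn-/- replicate 3 the log2 fold change was -0.32.

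Onecut1 (ENSMUSG00000043013, chromosome 9, 74861921 to 74891781, plus strand), the factor that horizontal cells need in order to form, had 47.7, 30.1 and 38.8 normalised reads in Emcn-/- retinas, against 45.6, 58.4 and 53.5 in Emcn+/+ retinas. Emcn-/- replicate 1 lay above Emcn+/+ replicate 1, so the groups overlapped. The means were 38.9 ± 8.81 in Emcn-/- and 52.5 ± 6.44 in Emcn+/+ (SD, n = 3 each; log2 fold change -0.44 ± 0.23 SE), on 120 and 156 reads in all. At that depth counting error alone was 15.8% of a library's value in Emcn-/- and 13.9% in Emcn+/+. The value without Emcn-/- replicate 2 was -0.27, and without Emcn-/- replicate 1 it was -0.60. Gm20649, a noncoding gene on the same strand, shares 2171 of the 4113 exonic bases of Onecut1. It has no value of its own in the deposited data, so it could not be examined.

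Lhx1 (ENSMUSG00000018698, chromosome 11, 84518284 to 84525535, minus strand), a LIM homeobox factor that places horizontal cells in their layer, had 99.3, 156 and 84.1 normalised reads in Emcn-/- retinas, against 129.6, 123 and 117 in Emcn+/+ retinas. Emcn-/- libraries lay on both sides of the Emcn+/+ ones, which sat close together. The means were 113 ± 37.7 in Emcn-/- and 123 ± 6.39 in Emcn+/+ (SD, n = 3 each; log2 fold change -0.17 ± 0.22 SE). The sign rested on single libraries: without Emcn-/- replicate 3 the value was 0.014, and without Emcn-/- replicate 2 it was -0.43. The neighbouring noncoding gene Lhx1os, which shares no exonic base with Lhx1, averaged 39.4 ± 6.52 normalised reads in Emcn-/- retinas, against 40.3 ± 9.28 in Emcn+/+ retinas.

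Prox1 (ENSMUSG00000010175, chromosome 1, 190118035 to 190170714, minus strand), a homeobox factor of horizontal cell differentiation, had 2829.5, 2694 and 2195 normalised reads in Emcn-/- retinas, against 3459, 2923 and 2362 in Emcn+/+ retinas. The libraries numbered 3 were lowest in both genotypes, and Emcn+/+ replicate 1 was the highest of all. The means were 2573 ± 334 in Emcn-/- and 2915 ± 548 in Emcn+/+ (SD, n = 3 each; log2 fold change -0.17 ± 0.14 SE). Lens fibres express Prox1, and the library with the most Prox1 reads was the one with 66552 lens reads. Among the other libraries, Emcn-/- replicate 3 had the largest lens sum (1139) and the lowest Prox1 value. The amacrine list sum was also highest in Emcn+/+ replicate 1 (27371 normalised reads). It was lowest in Emcn+/+ replicate 3 (20304) and Emcn-/- replicate 3 (23257). Of the 12 lens genes listed 11 were in the table, and none was at 0 in all libraries; their sums were 752 to 1139 normalised reads in Emcn-/- and 574 to 66552 in Emcn+/+. Without Emcn+/+ replicate 1 the Prox1 log2 fold change was -0.04, and without Emcn+/+ replicate 3 it was -0.31. The part of lens or amacrine RNA in the Prox1 values was not tested. The antisense gene Prox1os shares 133 exonic bases with Prox1, and the sources do not settle whether strand was kept. It averaged 79.4 ± 14.6 normalised reads in Emcn-/- retinas, against 70.5 ± 6.62 in Emcn+/+ retinas.

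**Figure D1:**
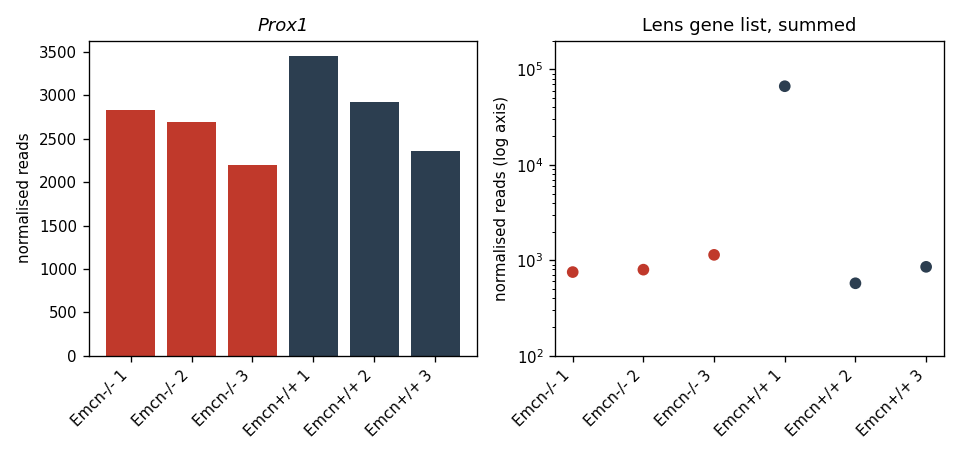
Left, Prox1 in normalised reads (bars, linear axis from 0), and right, the sum of 11 lens genes in normalised reads (points, log axis), for each Emcn-/- library (red) and each Emcn+/+ library (dark). Emcn+/+ replicate 1 is highest in both panels, with 3459 Prox1 and 66552 lens reads.

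Calb1 (ENSMUSG00000028222, chromosome 4, 15881264 to 15908064, plus strand), the calbindin that labels horizontal cells in sections, had 1462, 1674 and 1347 normalised reads in Emcn-/- retinas, against 1489, 1396 and 1295 in Emcn+/+ retinas. The groups overlapped and the sign was opposite to that of the other 5 genes. The means were 1494 ± 166 in Emcn-/- and 1393 ± 97.1 in Emcn+/+ (SD, n = 3 each; log2 fold change 0.10 ± 0.09 SE).

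**Figure D2:**
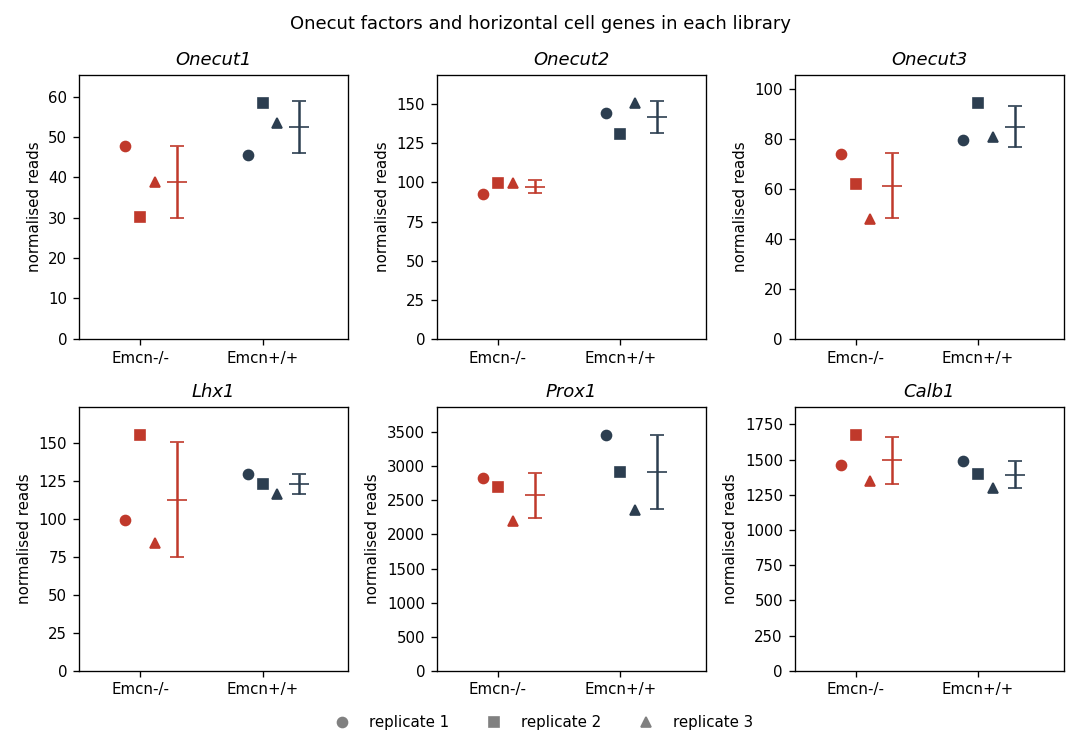
Normalised reads of each gene in each library, Emcn-/- (red, left) and Emcn+/+ (dark, right), with the marker shape giving the replicate and the bar the mean ± SD. Onecut2 and Onecut3 do not overlap between genotypes, whereas Onecut1, Lhx1, Prox1 and Calb1 do.

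Taken over the 6 genes, 5 had negative and 1 a positive log2 fold change, with a median of -0.31 beside 0.01 over all 16681 tested genes. In limma's test with Benjamini-Hochberg adjustment over the whole table, 0 of 6 passed an adjusted p of 0.05 in either direction, against 1 gene, or 0.00599%, of the table. DESeq2 called 0.492% of the table and 0 of the 6, of which 4 had no adjusted p. Groups without overlap were seen for 2 of 6 genes with the lower values in Emcn-/-, against 6.94% of the table, and for 0 of 6 with the higher values in Emcn-/-, against 7.48%. Because the genes were picked with these values known, nothing is read from those shares.

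Within each title series the Onecut genes had lower mean values in Emcn-/-. This is description only, because it splits the same libraries on which the genes were selected. The titles of the samples are numbers of 2 series, 1 starting with 14 (replicates 1 and 2 of each genotype) and 1 starting with 18 (replicate 3 of each), and the labels do not say what the series mean. The Emcn-/- minus Emcn+/+ difference in log2(value + 1) was -0.44 in series 14 and -0.45 in series 18 for Onecut1, and -0.51 and -0.59 for Onecut2. For Onecut3 it was -0.35 in series 14 and -0.74 in series 18. Lhx1 had -0.02 in series 14 and -0.47 in series 18, so its lower mean came from series 18. Prox1 had -0.20 and -0.11, and Calb1 0.12 and 0.06. Series 18 holds 1 library of each genotype, so its values have no error of their own. Its Emcn+/+ library is the one with the female read pattern and its Emcn-/- library is male by the same reads, so genotype and sex cannot be told apart within series 18.

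Compared per length, the 6 genes fell into a weakly and a strongly expressed set. Reads scaled by exonic length and library size (RPKM) ranged over the 6 libraries from 0.357 to 0.572 for Onecut2, 0.461 to 0.946 for Onecut1, 0.637 to 1.32 for Onecut3 and 1.31 to 2.41 for Lhx1. Calb1 had 16.5 to 21.8 RPKM and Prox1 16.6 to 26.2 RPKM. In this order of mean level each gene's range overlapped that of the next, except between Lhx1 and Calb1, which were separated by a wide gap. The deepest of the 3 Onecut genes in raw reads, Onecut2, was the lowest per length, because its annotated exons span 16234 bases against 4113 for Onecut1 and 4776 for Onecut3. If not all of those exons are used in retina, its level per length is understated.

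**Figure D3:**
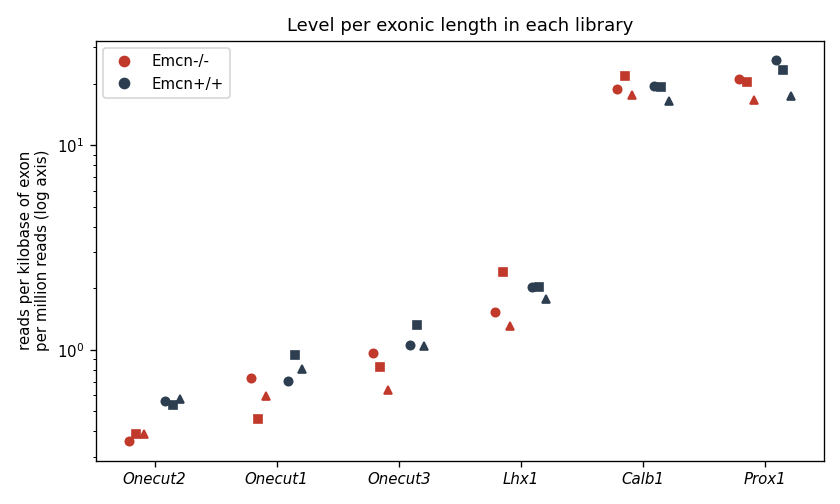
Level of each gene in RPKM (log axis) in each Emcn-/- library (red, left) and Emcn+/+ library (dark, right); marker shapes give replicates 1 (circle), 2 (square) and 3 (triangle). The Onecut genes lie between 0.357 and 1.32, Lhx1 just above them, and Calb1 and Prox1 between 16.5 and 26.2.

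Exonic length moved with the fold changes of the whole table. When the tested genes were ordered by exonic length and cut into 5 equal groups, the medians of the log2 fold change were 0.08, 0.05, 0.02, -0.01 and -0.07, shortest group first. Onecut2 and Prox1 (8390 bases) belong to the longest group and the other 4 genes to the middle group, whose median was 0.02. With a smooth length trend removed from each library, the Onecut2 log2 fold change was -0.40 and that of Prox1 was -0.12. The same correction left Onecut1 at -0.45, Onecut3 at -0.48, Lhx1 at -0.18 and Calb1 at 0.10.

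**Figure D4:**
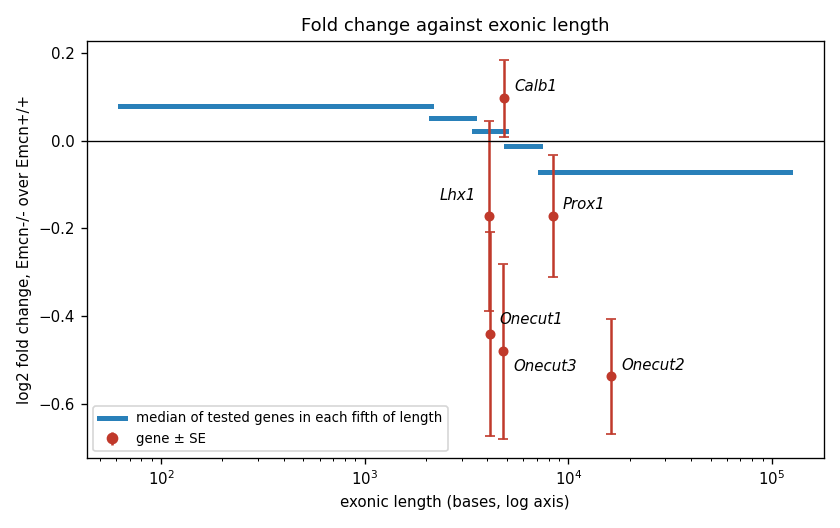
Log2 fold change of Emcn-/- over Emcn+/+ (red points, ± SE) against exonic length in bases (log axis), with blue bars at the median of the tested genes in each of 5 length groups. The medians run between 0.08 and -0.07, and the 3 Onecut genes lie below the median of their own group.

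Other horizontal cell genes showed little shift as a list. The list held 15 genes other than the 6, of which 13 were tested, 5 with positive and 8 with negative log2 fold changes and a median of -0.02. None passed over all genes (lowest limma adjusted p 0.662), and the sign of the median turned without Emcn+/+ replicate 1 (0.064) or replicate 2 (0.0047). It was -0.15 when Emcn+/+ replicate 3 was left out.

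Gja10, the connexin of horizontal cell gap junctions, had 43.8, 34.2 and 32.3 normalised reads in Emcn-/- retinas, against 44.6, 49.1 and 49.1 in Emcn+/+ retinas. Every Emcn-/- library was lower than every Emcn+/+ library, by less than 1 read's worth at the closest (log2 fold change -0.37 ± 0.21 SE, limma adjusted p = 0.680). This was the 1 gene of 13 whose groups did not overlap, where 6.94% of all tested genes were lower in Emcn-/- without overlap, so the list's share was near that of the table. Ret, a receptor of glial-derived growth factors, had the smallest p of the list (-0.17 ± 0.09, limma adjusted p = 0.662).

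The more abundant horizontal cell genes were close to level. Megf11 and Megf10, receptors that space horizontal cells, had log2 fold changes of -0.16 ± 0.11 and -0.10 ± 0.12 (SE). The AP-2 factors Tfap2b and Tfap2a, which act in horizontal and amacrine cell fate, had -0.05 ± 0.09 and -0.08 ± 0.10. Tfap2b averaged 2751 ± 176 normalised reads in Emcn-/- retinas, against 2864 ± 334 in Emcn+/+ retinas (SD, n = 3 each). The neurofilament subunit genes Nefl, Nefm and Nefh had 0.08 ± 0.08, -0.01 ± 0.11 and 0.11 ± 0.11, and ganglion cells express them too. Slc32a1, the vesicular GABA transporter, had 0.05 ± 0.08, Slc4a3, an anion exchanger, had -0.02 ± 0.09, and Septin4 0.09 ± 0.06.

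Foxn4 and Ptf1a, the progenitor factors that start the path in the embryo, were at the limit of detection. Foxn4 had 2, 0 and 1 reads in the Emcn-/- libraries and 1 read in each Emcn+/+ library. Ptf1a had 0, 1 and 1 reads in Emcn-/- and 0 in all 3 Emcn+/+ libraries. A library with 0 reads allows up to 3 reads (2.77 to 3.28 normalised reads, counting error only), so neither gene could be compared at this depth.

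**Figure D5:**
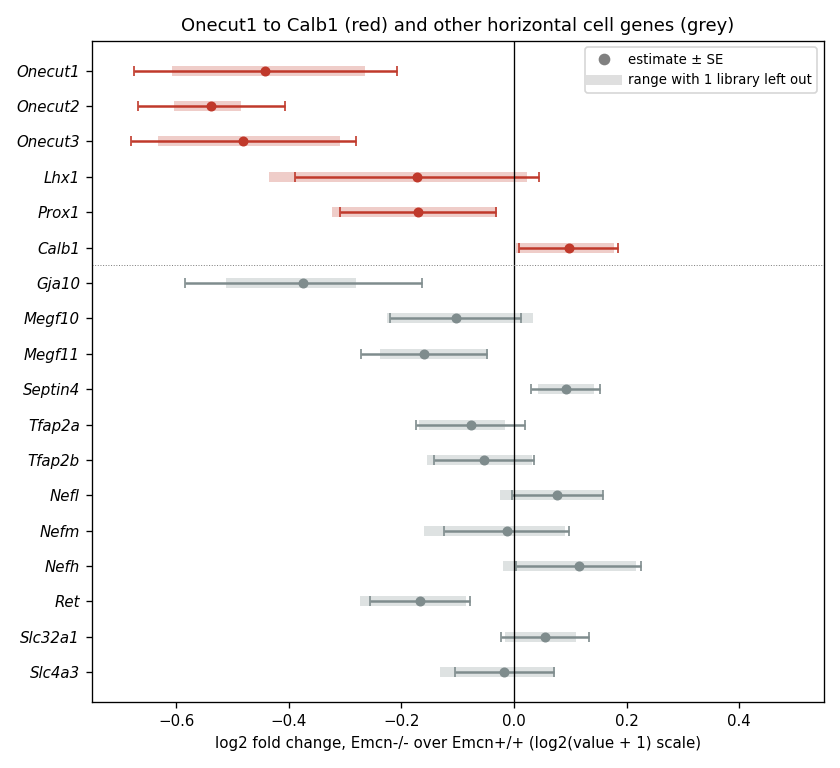
Log2 fold change of Emcn-/- over Emcn+/+ for the 6 genes (red) and other tested horizontal cell genes (grey); points are estimates, thin bars the SE and wide bands the range with 1 library left out. The 3 Onecut genes and Gja10 lie between -0.54 and -0.37, and the remaining genes between -0.17 and 0.11.

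Relatives of these factors were examined for the same contrast, and none passed in limma's test over all genes. The cut-domain genes Satb1, Cux1 and Cux2 had log2 fold changes of -0.12 ± 0.09, 0.01 ± 0.06 and -0.08 ± 0.09. Among 10 LIM and Prox relatives and cofactors, 6 were positive and 4 negative (median 0.02), with Lmo4 at 0.15 ± 0.07, Lhx2 at 0.10 ± 0.07 and Prox2 at 0.24 ± 0.18. The 8 other calcium-binding proteins had 5 positive and 3 negative values (median 0.05), with the parvalbumin gene Pvalb at 0.18 ± 0.13 and the calretinin gene Calb2 at 0.11 ± 0.09. Of 7 tested factors that act in horizontal cell formation, 2 were positive and 5 negative (median -0.05), with Sall3 at -0.22 ± 0.14 and Meis1 at -0.10 ± 0.07. These 7 include Tfap2a and Tfap2b, already counted among the other horizontal cell genes, so the lists overlap. The median is the value of Tfap2b itself.

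The ganglion cell, amacrine cell and outer plexiform synapse lists had medians close to 0. The ganglion cell genes split into 6 positive and 7 negative (median -0.01; Sncg 0.16, Pou4f2 -0.19), with 14150 to 14979 summed normalised reads in Emcn-/- and 12661 to 15482 in Emcn+/+. The amacrine list had 6 positive and 8 negative (median -0.02; Slc6a5 -0.27, Slc5a7 -0.17), with 23257 to 25599 in Emcn-/- and 20304 to 27371 in Emcn+/+. Both medians changed sign when single libraries were left out. Outer plexiform synapse genes had 8 positive and 12 negative (median -0.03), with Bsn, a scaffold of photoreceptor ribbons, at -0.38 ± 0.13 and Lrrc4c, a synaptic adhesion protein, at 0.19 ± 0.07 (limma adjusted p = 0.527 and 0.566).

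The cone, rod and Müller lists had positive medians, and the bipolar list a negative one. The cone list had 8 positive and 4 negative (median 0.12; Arr3 0.31, Pde6h 0.67), the rod list 14 positive and 0 negative (0.10; Gngt1 0.17, Cnga1 0.13) and the Müller list 8 positive and 4 negative (0.14; Apoe 0.37, Car14 0.40). The cone median was 0.062 without Emcn+/+ replicate 1 and 0.061 without Emcn-/- replicate 3, and the Müller median was 0.080 without Emcn+/+ replicate 2. The bipolar list had 2 positive and 10 negative (-0.07; Pcp2 0.26, Gpr179 -0.27), and its median was 0.0033 without Emcn+/+ replicate 1 and -0.0025 without Emcn-/- replicate 3. Neighbouring tissues varied more. The pigment epithelium list had 11 positive and 0 negative (0.83; Dct 1.11, Ttr 0.92), with 8907 to 12416 summed normalised reads in Emcn-/- and 3786 to 7906 in Emcn+/+, and the ciliary and iris list 10 positive and 1 negative (0.54; Col9a1 0.54, Col9a2 0.60). The lens list had 0 positive and 8 negative (-1.46; Bfsp1 -1.81, Cryab -1.12), which turned to a median of 1.21 without Emcn+/+ replicate 1. The lymphatic and endothelial list had 2 positive and 5 negative (-0.14; Kdr -0.26, Tek -0.56), and 0.06 without Emcn-/- replicate 2. Over all 16 lists, 0 of 166 tested genes passed (lowest limma adjusted p 0.374) and 28 had an unadjusted p under 0.05, against 8.14% of the table. The part of these neighbouring tissues in the Onecut values was not tested.

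The genes with the most similar profiles were sought over the 6 libraries among 11024 genes with a mean of at least 100 normalised reads. Likeness was the root mean square distance between log2(value + 1) profiles, each centred on its mean. For Onecut2 the nearest were Xrcc3, Col25a1 and Zgrf1, at distances of 0.112, 0.118 and 0.118. For Onecut3 they were Cdr1os (0.0773), Cacna1e (0.0928) and Fan1 (0.109), and for Onecut1 H2-T24 (0.111), Kif26a (0.128) and Kdm8 (0.129). Lhx1 was nearest to Bok (0.0629), Tdrd9 (0.123) and Grm4 (0.129). Prox1 was nearest to Grin3a (0.0409), Ermard (0.0436) and Abcc8 (0.0475), and Calb1 to Mier2 (0.0336), Dpysl4 (0.0364) and Apbb3 (0.0369). Onecut1, Onecut3 and Gja10 lay under that mean and could not be named as neighbours. No other horizontal cell gene of the list and none of the 6 genes was among the nearest of another.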

How the data were processed

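The deposited table gives 1 signal per gene and library. The build was GRCm38 per the submitters' processing notes; the aligner and counter were not given in the sources used here. Within a tolerance of 0.001 of a read, 100% of the deposited values in each library were whole multiples of 1 unit, as read counts over 1 factor give, and reads were recovered by dividing by that unit. All 6 value columns were used. GENCODE M21 gave positions and union exonic lengths for 27390 of 28627 genes (98.4% of those tested).

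Genotypes were compared on log2(value + 1) with limma 3.58.1 in R 4.3.3, using its intensity trend, no covariate, and Benjamini-Hochberg adjustment over the 16681 genes that passed edgeR's expression filter (minimum count 10) on the recovered reads. Alternatives were TMM scaling, edgeR 4.0.16, DESeq2 1.42.0, other filters and pseudocounts, each library left out, title series, sex, and a loess trend (span 0.5) on log10 exonic length. The scripts were tested on simulated data.

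The 6 genes and the 16 lists (173 of 176 symbols found) were chosen with earlier results of these data known. The 6 genes, 8 horizontal cell genes and the 2 genes of smallest p per list were named by rule; others were named after their values were seen. Replicate numbers follow sample order and pair nothing. The labels do not say whether libraries came from separate animals, so p-values measure the spread between libraries, which may be technical. At 14865868 to 17087621 reads per library, counting error is given as the inverse square root of the mean count. Some genes of the lists are not reported here.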

Additional observations from a re-analysis of the deposited data

How the results depend on the processing

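Over 16 alternatives, none of the 6 genes passed where an adjusted p was given, and 4 values under DESeq2 had none. Of 95 log2 fold changes, 1 changed sign: leaving out Emcn-/- replicate 3 gave Lhx1 a value of 0.014, while leaving out Emcn-/- replicate 2 gave -0.43. Not all of the 95 were free to change, so this count overstates how stable the signs are. Other filters cannot alter the fold change of a gene they keep. Nor can the title series as a term, since both genotypes are spread alike over the series. Sex as a term repeated the fold changes of the fit lacking Emcn+/+ replicate 3, which alone had the female read pattern. Onecut1 ranged from -0.60 to -0.27, Onecut2 from -0.60 to -0.40, Onecut3 from -0.62 to -0.32, Prox1 from -0.31 to -0.04 and Calb1 from 0.01 to 0.17. The median of the 6 was -0.37 to -0.19 with 1 library left out, lowest in size without Emcn-/- replicate 3, and -0.17 with a minimum mean of 50 normalised reads, which removed Onecut1. The median of the other horizontal cell genes was -0.15 to 0.064 with 1 library left out and -0.15 with sex as a term.

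The number of genes called was 1 in the main test and with edgeR, 82 with DESeq2 (67 lower, 15 higher), 0 with the minimum mean of 50, 153 with sex as a term, and 0 to 147 with 1 library left out, 147 without Emcn+/+ replicate 3. With the title series as a term, 1 gene was called and none of the 6 passed. The 6 genes were selected on this same contrast, so their part of these counts is description only. The labels give no replicate numbers that could pair single libraries. Onecut1 rested on 29 to 63 reads per library, which limits the precision of its values.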
